A study of Mus musculus with 74 samples.

Results

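Myc and its relative Mycn, the D-type cyclins Ccnd1, Ccnd2 and Ccnd3, the E-type cyclin Ccne1 and the cyclin-dependent kinase inhibitors Cdkn1a, Cdkn1b and Cdkn2a were followed in mouse embryonic stem (ES) cells in which Nanog was raised or removed. These 9 genes were taken by name, under a rule that uses no measured value, out of 37620 genes listed in the count table. Each of the 9 passed the filter on low counts in all 14 comparisons, so none was left out of a test.

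Entry into S phase is governed by cyclins bound to their kinase partners. D-type cyclins activate Cdk4 and Cdk6, which phosphorylate the retinoblastoma protein and release E2F factors, and cyclin E with Cdk2 completes the step. Myc factors are basic helix-loop-helix activators of growth, ribosome and nucleotide synthesis genes. The Cdkn1 proteins bind cyclin-kinase complexes, while the Cdkn2a locus encodes both p16Ink4a, which binds Cdk4 and Cdk6, and p19Arf, which stabilises p53. ES cells are known for a short G1 phase, abundant cyclin E and little p16Ink4a, and Myc is a known target of LIF signalling through Stat3.

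On the mm9 build the genes lie at chr15:61816946-61821929 (Myc, ENSMUSG00000022346, plus strand), chr12:12942902-12948720 (Mycn, ENSMUSG00000037169, minus), chr7:152115836-152125774 (Ccnd1, ENSMUSG00000070348, minus), chr6:127075797-127101066 (Ccnd2, ENSMUSG00000000184, minus) and chr17:47642000-47736632 (Ccnd3, ENSMUSG00000034165, plus). Ccne1 lies at chr7:38883003-38892553 (ENSMUSG00000002068, minus), Cdkn1a at chr17:29227924-29237667 (ENSMUSG00000023067, plus), Cdkn1b at chr6:134870419-134875531 (ENSMUSG00000003031, plus) and Cdkn2a at chr4:88920377-88940557 (ENSMUSG00000044303, minus). Values are sums over each gene's exons.

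RNA-seq of polyadenylated RNA was analysed for 35 libraries of E14Tg2a ES cells and derivatives, cultured on gelatine in medium with foetal calf serum. Nanog SunTag cells carry a doxycycline (Dox)-inducible CRISPR activator, made of an inactive Cas9 with a GCN4 array and antibody fragments fused to VP64, both driven by a tetracycline-responsive element, together with the rtTA transactivator and a constant guide RNA to the Nanog promoter. They come from 2 clones, C1 and C2. Nanog/Otx2 SunTag cells are the same cells with an added guide to Otx2, 1 clone from each parent (C1ON3 and C2ON3). SunTag cells were grown for 3 days with or without 1 µg/mL Dox, and with 10 ng/mL LIF or with none. Nanog SunTag cells gave 3 libraries with LIF and no Dox, 2 with LIF and Dox, 3 with neither and 3 with Dox alone, and Nanog/Otx2 SunTag cells gave 3, 4, 4 and 4. 44iN cells lack endogenous Nanog and carry a Dox-inducible Nanog transgene; with LIF throughout, they were kept in Dox (2 libraries), deprived of Dox for 24 h (2) or grown long-term without Dox under G418 (2). Unmodified Tg2a cells with LIF and serum gave 3 libraries. Values are normalised counts, the estimated read counts divided by a size factor per library, and library totals ran from 6107512 to 92244655 estimated counts. Nothing in the labels says whether replicates were separate cultures, so p-values measure the spread between these libraries, which may be technical.

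The targeted genes followed the labels. Nanog averaged 24924 normalised counts in Nanog SunTag cells with LIF and 84519 after Dox, and without LIF 5916 and 51805. In Nanog/Otx2 cells the means went from 19480.0 to 44065 with LIF and from 4425 to 39529.6 without it. Otx2 averaged 952 and 3509 with LIF, and 4074 and 7173 without it. In 44iN cells Nanog fell from 15880.4 to 722 after 24 h and stood at 252 in the long-term culture. ES cell markers were present in every library, with Pou5f1 between 6786 and 47215 normalised counts. The names of the 20 Nanog SunTag, Tg2a and 44iN libraries share a prefix (HV) and those of the 15 Nanog/Otx2 libraries another (B426). What the prefixes stand for is not given in the sources used here, and the guide and the prefix cannot be told apart. Libraries of a condition are given in the order C1 before C2: in Nanog SunTag cells C1, C2 and C2 with LIF alone, C1 and C2 with LIF and Dox, and C1, C1 and C2 in both conditions without LIF. In Nanog/Otx2 cells the order is C1ON3, C1ON3 and C2ON3 with LIF alone, and C1ON3, C1ON3, C2ON3 and C2ON3 elsewhere.

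A gene was called where its adjusted p in edgeR's quasi-likelihood test (Benjamini-Hochberg over all genes tested) lay below 0.05. LIF withdrawal without Dox changed 5 of the 9 genes in Nanog SunTag cells (Ccnd1, Ccnd2 and Ccne1 rose, Ccnd3 and Cdkn1a fell), where 41.5% of all genes tested were called. The same step in Nanog/Otx2 cells changed 2 of 9, Ccnd3 and Cdkn1a, both lower, where 49.8% of genes were called. With Dox present, withdrawal changed 5 of 9 in Nanog SunTag cells (Mycn, Ccnd1 and Ccnd2 rose, Ccnd3 and Cdkn1a fell; 32.6% of genes called) and 4 of 9 in Nanog/Otx2 cells (Ccnd1 and Ccnd2 rose, Ccnd3 and Cdkn1a fell; 36.5%). Calls on LIF withdrawal were common among all genes, and the members' share is no result about the members.

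Dox without LIF changed 1 of 9 in Nanog SunTag cells, Ccnd2, which rose (5.14% of genes called), and 3 of 9 in Nanog/Otx2 cells, where Ccnd2 and Ccnd3 rose and Cdkn1b fell (17.3%). Dox with LIF changed 1 of 9 in Nanog SunTag cells, Ccnd1, which fell (0.563%), and 5 of 9 in Nanog/Otx2 cells, where Cdkn2a rose and Mycn, Ccnd1, Ccnd2 and Ccne1 fell (22.9%). The effect of Dox differed between the culture without and with LIF for 2 of 9, Ccnd1 and Ccnd2, in Nanog SunTag cells (1.93% of genes called) and for the same pair in Nanog/Otx2 cells (9.7%). Dox without LIF set against LIF without Dox in Nanog SunTag cells, that is Nanog in place of LIF, left 4 of 9 apart: Ccnd1 and Ccnd2 higher, Ccnd3 and Cdkn1a lower (28.1%). None of the 9 differed between the guides in the Dox effect without LIF, by edgeR, by DESeq2 or at an unadjusted p under 0.05 (0.0308% of genes called). Comparisons within a cell type share control libraries and are not independent of each other.

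A fit that also held the clone, or in Nanog/Otx2 cells the clone and replicate number, as a block called more genes in the comparisons that follow. It called 6 of 9 on LIF withdrawal without Dox in Nanog SunTag cells, where 46.3% of genes were then called, and 3 of 9 in Nanog/Otx2 cells (61.8%). Withdrawal with Dox in Nanog/Otx2 cells gave 7 of 9 (51.9%). Dox without LIF gave 2 of 9 in Nanog SunTag cells (8.8%) and 6 of 9 in Nanog/Otx2 cells (33.4%), Dox with LIF 7 of 9 in the latter (41.0%), and the difference of the Dox effects 6 of 9 (21.8%). Replicate numbers in the titles and in the names of the table's columns differ for some libraries. When the block was taken from the column names instead, LIF withdrawal without Dox in Nanog SunTag cells called 4 of 9 (35.3% of genes called), Ccnd2 (adjusted p = 0.0519) and Ccne1 (0.0741) losing their calls and Myc (0.00279) gaining one, and Dox with LIF called none (0.0064% of genes called), Ccnd1 standing at adjusted p = 0.115. Values with the block by title are given below for each SunTag member whose call they change.

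**Figure D1:**
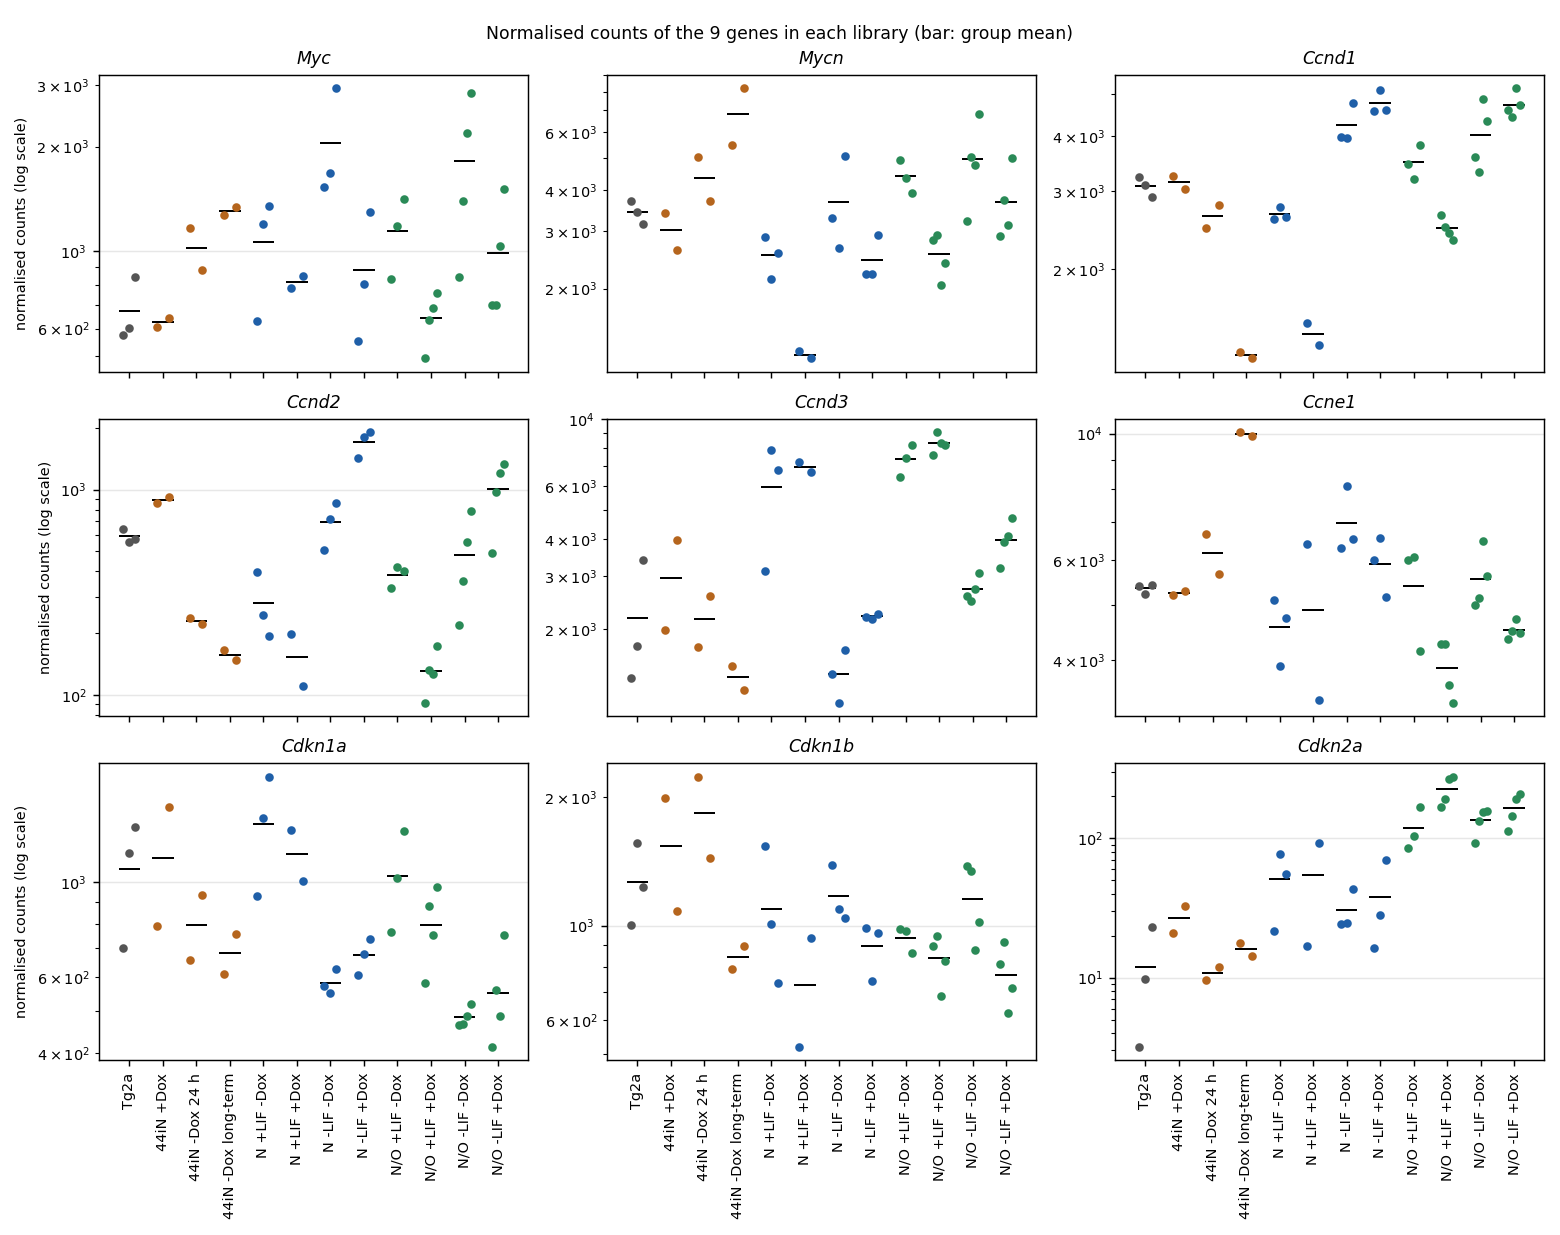
Normalised counts (log scale) of the 9 genes in each of the 35 libraries, one panel per gene, with the 12 groups along the x axis (N, Nanog SunTag; N/O, Nanog/Otx2 SunTag). Points are libraries and bars are group means; the Ccnd3 libraries without LIF all lie below those with LIF in the same SunTag cells, and Ccnd2 is lowest in Nanog/Otx2 cells with LIF and Dox.

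Myc was at its highest in SunTag cells without LIF and without Dox. In Nanog SunTag cells with LIF it stood at 632, 1200.2 and 1349.6 normalised counts without Dox and at 783 and 849 with Dox. Without LIF the libraries held 1534, 1675 and 2945 without Dox and 551, 804 and 1295 with Dox. The libraries without LIF and Dox lay above all others of these cells, and the other 3 conditions overlapped. On LIF withdrawal without Dox the log2 fold change was 0.93 ± 0.36 (SE), adjusted p = 0.0533, short of the threshold, and with the clone as a block it was 1.2, adjusted p = 0.000702. Dox without LIF gave -1.19 ± 0.36 (SE), adjusted p = 0.0852, and -1.2, adjusted p = 0.00321 with the block. Both were called without 1 library: the first without the C1 library titled 1 of the untreated cells without LIF (1.11, adjusted p = 0.0496), the second without the C2 library with Dox (-1.57, adjusted p = 0.0403). Dox with LIF gave -0.39 ± 0.40 (SE), adjusted p = 0.69.

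Myc counts in Nanog/Otx2 cells were 831, 1185 and 1412 with LIF alone and 493, 633, 688 and 759 with LIF and Dox. They were 845, 1399, 2187 and 2846 without LIF and 699.7, 700.5, 1035 and 1512 without LIF and with Dox. Every library with LIF and Dox lay below every one with LIF alone, while the other conditions overlapped. No comparison called Myc in the fit without a block, with log2 fold changes of -0.84 ± 0.33 (SE), adjusted p = 0.0946 for Dox without LIF and -0.79 ± 0.36 (SE), adjusted p = 0.123 for Dox with LIF. The blocked fit gave -0.79, adjusted p = 0.00138 for the former, -1.0, adjusted p = 0.000501 for the latter and 0.56, adjusted p = 0.00751 for LIF withdrawal with Dox. Without the first C1ON3 library lacking LIF and Dox, Dox without LIF gave -1.08, adjusted p = 0.0203 and LIF withdrawal without Dox gave 0.89, adjusted p = 0.0303; without the second C2ON3 library with Dox, the former gave -1.13, adjusted p = 0.036. Every C2-derived library exceeded every C1-derived one in each of the 8 SunTag conditions, a difference between clones that was not tested.

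Mycn, a Myc paralogue, exceeded Myc per kilobase of exon in all 35 libraries and fell with Dox in the presence of LIF in Nanog/Otx2 cells. Nanog SunTag cells with LIF held 2881, 2137 and 2569 normalised counts without Dox and 1289 and 1226 with Dox. Without LIF they held 3281, 2667 and 5067 and, with Dox, 2217, 2211 and 2910.5. The pair with LIF and Dox lay below every other library of the series, and the remaining conditions overlapped. LIF withdrawal in the presence of Dox gave a log2 fold change of 0.99 ± 0.26 (SE), adjusted p = 0.0156, a call lost without the C1 (adjusted p = 0.0753) or the C2 library with LIF and Dox (0.0641). Dox with LIF gave -1.02 ± 0.27 (SE), adjusted p = 0.117, and LIF withdrawal without Dox 0.52 ± 0.23 (SE), adjusted p = 0.0901. The latter was called without the C1 library with LIF (0.65, adjusted p = 0.0407) or the second C1 library without it (0.72, adjusted p = 0.0291).

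Mycn stood in Nanog/Otx2 cells at 4939, 4362 and 3926 with LIF alone and at 2819.7, 2923, 2052 and 2389 with LIF and Dox. The counts without LIF were 3221, 5039, 4771 and 6851 without Dox and 2903, 3719.6, 3122 and 4996 with Dox. The libraries with LIF and Dox lay below all those with LIF alone, while those without LIF overlapped. Dox with LIF lowered Mycn, at -0.78 ± 0.22 (SE), adjusted p = 0.0202. This call was lost without either C1ON3 library with LIF alone or without the first C2ON3 library with LIF and Dox (adjusted p = 0.0614 to 0.0859). LIF withdrawal with Dox gave 0.52 ± 0.21 (SE), adjusted p = 0.0592, called with the block (0.49, adjusted p = 0.0245) and without the first C1ON3 library lacking LIF and given Dox (0.62, adjusted p = 0.0396).

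Mycn also carried most of the E2F motif matches among the members' promoters, and its sequence and that of the p16Ink4a start of Cdkn2a are shown for this reason. The bases upstream of the gene start were taken from RefSeq on the GRCm38.p6 build, for which 6 of the 9 genes had entries, some with 2 starts. Myc, Ccnd1 and Ccnd2 were not matched. The motifs were searched on both strands in the 250 upstream bases of 32851 starts: the E2F site TTTNGCGC (in 1.13%), the Myc E-box CACGTG (6.02%) and the Stat site TTCNNNGAA (7.02%). Mycn held 3 E2F matches, the first from 183 to 176 bases upstream and the second, overlapping it on the other strand, from 179 to 172, with the last from 168 to 161. The downstream start of Cdkn2a held 1, from 244 to 237 bases upstream. No E-box or Stat match was found in any member's window. Capitals mark the E2F matches, and both sequences read 5′ to 3′ along the gene, on the minus strand:
Mycn, chr12:12941837-12942086: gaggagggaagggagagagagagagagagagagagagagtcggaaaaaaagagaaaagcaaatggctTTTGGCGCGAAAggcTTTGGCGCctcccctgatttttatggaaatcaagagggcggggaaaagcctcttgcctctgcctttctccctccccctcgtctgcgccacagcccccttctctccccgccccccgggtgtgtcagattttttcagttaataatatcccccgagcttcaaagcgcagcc
Cdkn2a, chr4:89282193-89282442: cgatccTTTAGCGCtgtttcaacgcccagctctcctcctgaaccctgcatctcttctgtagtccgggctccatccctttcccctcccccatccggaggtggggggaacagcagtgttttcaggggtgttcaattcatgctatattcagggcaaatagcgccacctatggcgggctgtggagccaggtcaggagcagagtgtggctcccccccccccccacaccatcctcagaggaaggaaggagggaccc
A match describes these letters only, and no binding was measured here.

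Ccnd1 rose on LIF withdrawal in 3 of the 4 SunTag comparisons, and its response to Dox differed between culture with and without LIF. With LIF the Nanog SunTag libraries held 2600.1, 2767 and 2621 normalised counts without Dox and 1505 and 1340.1 with Dox. Without LIF the counts were 3993, 3967 and 4752 without Dox and 4569, 5102 and 4584 with Dox. All libraries without LIF lay above all with LIF, and among the latter the pair with Dox lay below the rest. LIF withdrawal raised it by 0.65 ± 0.13 (SE), adjusted p = 0.00203, without Dox and by 1.77 ± 0.15 (SE), adjusted p = 4.75e-05, with Dox, a 3.40-fold step. Dox lowered it in the presence of LIF (-0.92 ± 0.15 (SE), adjusted p = 0.0234) and gave 0.19 ± 0.13 (SE), adjusted p = 0.483, in its absence. The difference of these Dox effects was 1.11 ± 0.19 (SE), adjusted p = 0.0174. The fall with Dox was called without the C1 library with LIF alone but in none of the other 4 fits that leave out a library (adjusted p = 0.0684 to 0.117). The difference lost its call without the C2 library with LIF and Dox or without any C1 library lacking LIF (adjusted p = 0.0501 to 0.064). With Nanog in place of LIF, Ccnd1 was higher by 0.85 ± 0.13 (SE), adjusted p = 0.000865.

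Ccnd1 stood in Nanog/Otx2 cells at 3454, 3205 and 3814 with LIF alone and at 2646, 2493, 2417 and 2328 with LIF and Dox. Without LIF it stood at 3583, 3311, 4871 and 4337 and, with Dox, at 4582, 4427, 5149 and 4701. The libraries with LIF and Dox were again the lowest and did not overlap the others. Dox with LIF lowered it (-0.48 ± 0.11 (SE), adjusted p = 0.00775), LIF withdrawal with Dox raised it (0.92 ± 0.11 (SE), adjusted p = 1.15e-05), and the difference of the Dox effects was 0.74 ± 0.15 (SE), adjusted p = 0.00687. These 3 calls held without each library in turn. LIF withdrawal without Dox gave 0.18 ± 0.11 (SE), adjusted p = 0.22, with a 95% interval of -0.07 to 0.42. Dox without LIF gave 0.27 ± 0.10 (SE), adjusted p = 0.097, called with the block (0.27, adjusted p = 0.0231) and without the first C2ON3 library lacking LIF and Dox (0.37, adjusted p = 0.0233). The gene overlaps Oraov1 on the other strand, and the libraries were stranded.

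Ccnd2 had the widest range of the cyclins, from 91.9 to 1902 normalised counts, and its Dox effect too differed between culture with and without LIF. In Nanog SunTag cells with LIF it stood at 399, 246 and 194 without Dox and at 198 and 110.3 with Dox. Without LIF it rose to 508, 723 and 860.5 and, with Dox, to 1419, 1795 and 1902. The libraries without LIF and with Dox lay above all others of the series, and the 2 conditions with LIF overlapped in the C1 library with Dox. LIF withdrawal raised it 2.48-fold without Dox (log2 fold change 1.31 ± 0.31 (SE), adjusted p = 0.0058) and 11.4-fold with Dox (3.52 ± 0.39 (SE), adjusted p = 0.000169). Dox without LIF added 1.32 ± 0.30 (SE), adjusted p = 0.0262. That call was kept without the C2 library lacking LIF and Dox and lost without any 1 of the other 5 libraries (adjusted p = 0.0545 to 0.12). Dox with LIF gave -0.89 ± 0.36 (SE), adjusted p = 0.298. The difference between these Dox effects was 2.21 ± 0.47 (SE), adjusted p = 0.0386, and leaving out 1 library ended the call in 8 of 11 fits (adjusted p = 0.055 to 0.117), all but those without the C1 library or the second C2 library with LIF alone or the C2 library with neither. Nanog in place of LIF left Ccnd2 6.19-fold higher (2.63 ± 0.32 (SE), adjusted p = 0.000231).

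Nanog/Otx2 cells held 333, 421 and 403 Ccnd2 counts with LIF alone and 91.9, 133, 126 and 173 with LIF and Dox. Without LIF they held 219, 361, 555 and 789, and with Dox 489, 979.5, 1209 and 1331. The libraries with LIF and Dox were the lowest without overlap, and both conditions without LIF spread widely, the C1ON3 libraries below those of C2ON3. Dox lowered Ccnd2 with LIF (-1.52 ± 0.39 (SE), adjusted p = 0.0124), a call lost without the second C1ON3 library with LIF alone (adjusted p = 0.0557). It raised Ccnd2 without LIF (1.11 ± 0.35 (SE), adjusted p = 0.0408), a call kept without the second C2ON3 library lacking LIF and Dox or the first C1ON3 library with Dox alone and lost in the other 6 of 8 fits (adjusted p = 0.0687 to 0.107). The difference, 2.63 ± 0.53 (SE), adjusted p = 0.00554, held without each of the 15 libraries. LIF withdrawal with Dox raised Ccnd2 7.52-fold (2.91 ± 0.38 (SE), adjusted p = 3.36e-05), and without Dox it gave 0.28 ± 0.39 (SE), adjusted p = 0.576, with an interval of -0.54 to 1.1. Between the guides, the Dox effect without LIF differed by -0.26 ± 0.50 for Ccnd2 (interval -1.30 to 0.77) and by 0.03 ± 0.16 for Ccnd1 (-0.30 to 0.35).

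Ccnd3 went the other way, falling on LIF withdrawal in every SunTag comparison. In Nanog SunTag cells it stood at 3117, 7903 and 6773 normalised counts with LIF alone and at 7218 and 6652 with LIF and Dox. Without LIF it stood at 1420.0, 1139 and 1709, and with Dox at 2199.8, 2165 and 2247. No library without LIF reached any with LIF, and the C1 library with LIF alone was the lowest of its group. The fall was 4.20-fold without Dox (-2.07 ± 0.28 (SE), adjusted p = 0.000175) and 3.09-fold with Dox (-1.63 ± 0.30 (SE), adjusted p = 0.0023), and both calls held without each library. Dox gave 0.66 ± 0.27 (SE), adjusted p = 0.21, without LIF, where the libraries did not overlap, and 0.22 ± 0.30 (SE), adjusted p = 0.775, with LIF.

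The Nanog/Otx2 libraries held 6451, 7415 and 8231 Ccnd3 counts with LIF alone and 7619, 9053, 8366 and 8217 with LIF and Dox. Without LIF these were 2583, 2482, 2716 and 3082, and with Dox 3200.3, 3891, 4075 and 4676. The 4 conditions ordered in the same way as in Nanog SunTag cells, and those without LIF did not overlap each other. LIF withdrawal lowered Ccnd3 2.77-fold without Dox (-1.47 ± 0.12 (SE), adjusted p = 1.47e-07) and 2.12-fold with Dox (-1.08 ± 0.11 (SE), adjusted p = 3.83e-06), and Dox without LIF raised it (0.58 ± 0.11 (SE), adjusted p = 0.00223). Those 3 calls held without each library. The difference of the Dox effects was 0.39 ± 0.16 (SE), adjusted p = 0.159, called with the block (0.42, adjusted p = 0.0165) and without the first C1ON3 library with Dox alone (0.48, adjusted p = 0.0459). Nanog in place of LIF left Ccnd3 lower in Nanog SunTag cells, at -1.41 ± 0.27 (SE), adjusted p = 0.00342. Ccnd3 overlaps Bysl, and Ccnd2 a lncRNA gene, 9330179D12Rik, on the opposite strand.

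Levels of the D-type cyclins against each other were compared as length-scaled levels, the counts per kilobase of exon scaled to the library total (as RPKM). With LIF alone, Nanog SunTag cells averaged 89.4 for Ccnd3, 23.6 for Ccnd1 and 1.67 for Ccnd2, and without LIF and Dox 21.2, 37.1 and 4.09. The order of the first pair thus turned. The ratio of Ccnd1 to Ccnd3 per length ran from 0.206 to 0.491 in the 3 libraries with LIF alone, from 0.118 to 0.123 with LIF and Dox, from 1.64 to 2.05 without either and from 1.2 to 1.39 with Dox alone. Nanog/Otx2 cells gave 0.254 to 0.315, 0.162 to 0.204, 0.785 to 1.05 and 0.591 to 0.842 in the same order of conditions. In both cell types every library with LIF lay below every library without it, and Ccnd3 was the higher of the pair in 7 of the 8 Nanog/Otx2 libraries without LIF. Ccnd2 was the lowest of the 3 in all 35 libraries.

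**Figure D2:**
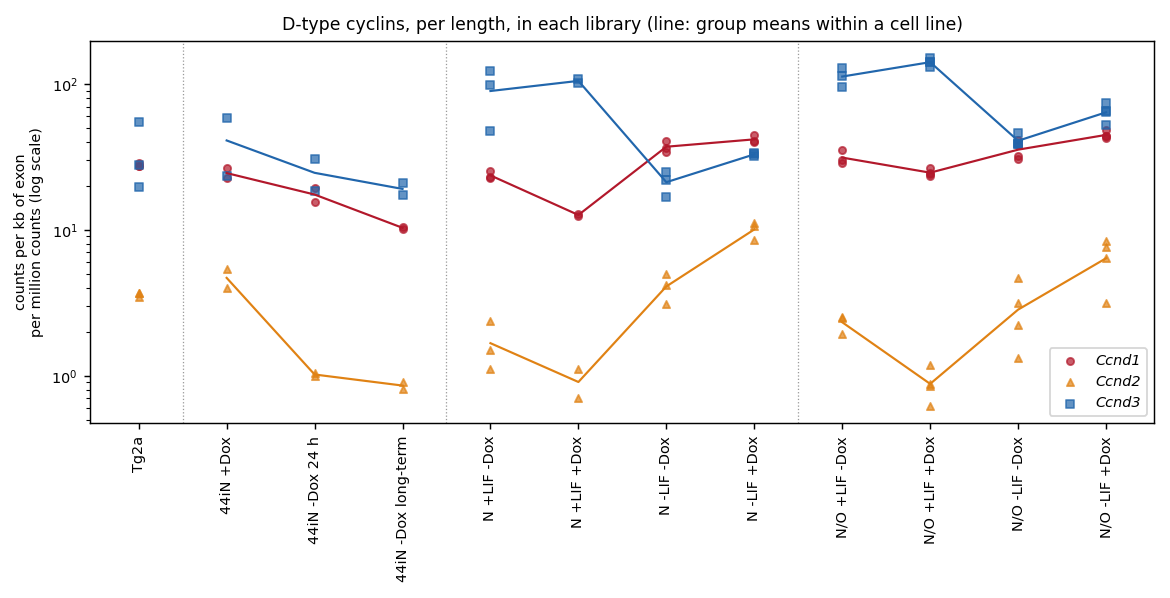
Length-scaled levels (counts per kilobase of exon, scaled to the library total as RPKM; log scale) of the 3 D-type cyclins in each library, with groups along the x axis and lines joining group means within a cell line. Mean Ccnd3 is lower without LIF in both SunTag cell types, and Ccnd1 and Ccnd2 were called higher in 3 of the 4 comparisons of LIF withdrawal, with mean Ccnd3 at 89.4 and 21.2 in Nanog SunTag cells with and without LIF.

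Ccne1 varied least of the 9 genes, 2.98-fold between the lowest and the highest library. With LIF, Nanog SunTag cells held 5101, 3907 and 4743 normalised counts without Dox and 6389.7 and 3401 with Dox. Without LIF they held 6296, 8088 and 6539 and, with Dox, 6006, 6549 and 5161. The libraries with neither lay above those with LIF alone, and the pair with LIF and Dox, C1 high and C2 low, overlapped the rest. LIF withdrawal without Dox raised Ccne1 by 0.58 ± 0.22 (SE), adjusted p = 0.0484, a call kept without the C1 library with LIF alone and lost without any 1 of the other 5 (adjusted p = 0.0625 to 0.148). The other comparisons did not call it in these cells, although withdrawal with Dox gave 0.82, adjusted p = 0.0385, without the C1 library with LIF and Dox.

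Nanog/Otx2 cells held 5993, 6061 and 4157 Ccne1 counts with LIF alone and 4275, 4268, 3615 and 3370.1 with LIF and Dox. Without LIF they held 5001, 5138, 6480.2 and 5623, and with Dox 4363, 4509, 4726 and 4459. The C2ON3 library with LIF alone fell among those with LIF and Dox, so these 2 conditions overlapped, while both conditions with Dox lay apart. Dox with LIF lowered Ccne1 (-0.47 ± 0.13 (SE), adjusted p = 0.0171), a call lost without either C1ON3 library with LIF alone or the first C2ON3 library with LIF and Dox (adjusted p = 0.0501 to 0.103). Dox without LIF gave -0.26 ± 0.12 (SE), adjusted p = 0.145, with no overlap between the libraries, and LIF withdrawal gave 0.00 ± 0.13 without Dox (interval -0.27 to 0.28).

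Among the inhibitors, Cdkn1a (p21, a p53 target) fell on LIF withdrawal. Its counts in Nanog SunTag cells were 929, 1408 and 1755 with LIF alone and 1319 and 1003 with LIF and Dox. They were 573, 551 and 626 without LIF and 606, 679.8 and 737 with Dox alone. Every library without LIF lay below every library with it. The fall without Dox was 2.37-fold (-1.24 ± 0.21 (SE), adjusted p = 0.000903) and held without each library. With Dox it was -0.76 ± 0.23 (SE), adjusted p = 0.0284, and was lost without the C1 library with LIF and Dox (adjusted p = 0.223) or either C1 library with Dox alone (0.0984 and 0.075). Nanog in place of LIF left Cdkn1a lower, at -1.0 ± 0.21 (SE), adjusted p = 0.00557, and Dox gave 0.24 ± 0.21 (SE), adjusted p = 0.636, without LIF.

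Cdkn1a stood in Nanog/Otx2 cells at 764, 1021 and 1310.1 with LIF alone and at 581, 879, 751 and 972 with LIF and Dox. Counts without LIF were 464, 468, 489 and 519.7, and with Dox 414, 559, 487 and 752. The conditions without Dox did not overlap, while those with Dox did. LIF withdrawal lowered it without Dox (-1.11 ± 0.21 (SE), adjusted p = 0.000511), a call that held without each library, and with Dox (-0.53 ± 0.20 (SE), adjusted p = 0.044). The latter was kept without the first C1ON3 library with LIF and Dox or the second C2ON3 library with Dox alone and lost in the other 6 of 8 fits (adjusted p = 0.0635 to 0.142). Dox with LIF gave -0.34 ± 0.21 (SE), adjusted p = 0.26, and the difference of the Dox effects 0.57 ± 0.29 (SE), adjusted p = 0.263; both were called with the block (-0.44, adjusted p = 0.0183, and 0.63, adjusted p = 0.0242).

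Cdkn1b (p27) was called once, in Nanog/Otx2 cells, where Dox without LIF lowered it. Nanog SunTag cells held 1539.7, 1011 and 735 counts with LIF alone and 520.4 and 935 with LIF and Dox, and without LIF 1384, 1091 and 1041 and, with Dox, 988, 742 and 961. The libraries with Dox alone lay below those with neither, the other conditions overlapped, and no comparison called the gene (Dox without LIF, -0.36 ± 0.29 (SE), adjusted p = 0.592). Nanog/Otx2 cells held 980.4, 971 and 861 with LIF alone and 895, 947, 685 and 824 with LIF and Dox. Without LIF they held 1377, 1342, 877 and 1021, and with Dox 815, 916, 625 and 713. Within each clone the libraries with Dox alone lay below those with neither, though the conditions overlapped across clones. The change was -0.55 ± 0.15 (SE), adjusted p = 0.0216, lost without either C1ON3 library with neither or either C2ON3 library with Dox alone (adjusted p = 0.0546 to 0.0659). With the block, LIF withdrawal without Dox gave 0.29, adjusted p = 0.00853 and the difference of the Dox effects -0.44, adjusted p = 0.0148, against 0.26 ± 0.17 (SE), adjusted p = 0.208 and -0.40 ± 0.22 (SE), adjusted p = 0.327, without it. C1-derived libraries exceeded all C2-derived ones in 6 of 8 SunTag conditions.

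Cdkn2a was the scarcest member, from 3.19 to 276 normalised counts and from 4 to 543 estimated counts. Its transcripts for p16Ink4a and p19Arf were counted as 1 gene. Nanog SunTag cells held 21.4, 77.1 and 54.9 with LIF alone and 16.8 and 92.4 with LIF and Dox, and without LIF 24.4, 24.6 and 43.0 and, with Dox, 16.3, 28.3 and 69.6. The conditions overlapped and none was called. Over the 4 conditions the C1 libraries ran from 16.3 to 28.3 and the C2 libraries from 43.0 to 92.4. Nanog/Otx2 cells held 85.2, 103 and 167 with LIF alone and 166, 189.9, 267 and 276 with LIF and Dox. Without LIF it stood at 92.9, 133, 153 and 157, and with Dox at 113, 145, 192 and 208. The conditions with LIF overlapped only in the C2ON3 library with LIF alone, at 167, and those without LIF overlapped throughout. Dox with LIF raised it 2.04-fold (1.03 ± 0.29 (SE), adjusted p = 0.0205), a call lost without either C1ON3 library with LIF alone or either C2ON3 library with LIF and Dox (adjusted p = 0.0569 to 0.113). The block added calls of 0.32, adjusted p = 0.0279 for Dox without LIF, -0.47, adjusted p = 0.00165 for LIF withdrawal with Dox and -0.56, adjusted p = 0.0219 for the difference of the Dox effects. C2-derived libraries exceeded all C1-derived ones in 8 of 8 SunTag conditions. Every Nanog/Otx2 library but 1 lay above every Nanog SunTag library, and the guide and the name prefix cannot be told apart.

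**Figure D3:**
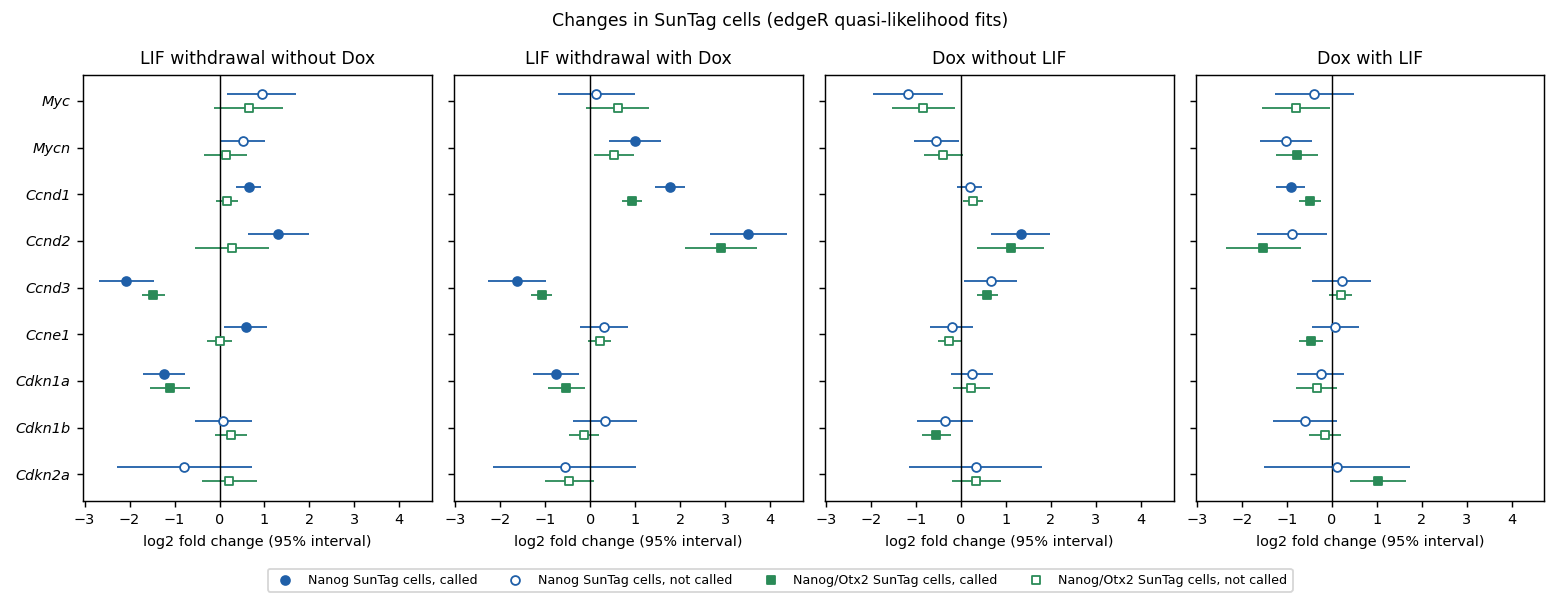
Log2 fold changes of the 9 genes with 95% intervals in the 4 comparisons of each SunTag cell type; filled symbols are called. In both cell types Ccnd3 and Cdkn1a lie left of 0 in the panels of LIF withdrawal, and Ccnd1 and Ccnd2 lie left of 0 for Dox with LIF and right of 0 for Dox without LIF.

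Cell state markers moved with these changes. Summed over 9 ES cell markers, Nanog SunTag libraries ran from 121305 to 134253 normalised counts with LIF alone, from 173935 to 201674 with LIF and Dox, from 34127 to 37950.2 with neither and from 93936 to 105602 with Dox alone. These sums include Nanog, the gene that Dox induces, at means of 24924, 84519, 5916 and 51805 in that order. Of the 9 markers, Nanog included, 0 were called for Dox with LIF and 6 rose for Dox without LIF. The 6 formative epiblast markers summed to 3879 to 7803, 2954 to 3976, 71015 to 84272 and 34911 to 37878 in the same order. On LIF withdrawal without Dox 8 of 9 ES cell markers fell and 5 of 5 tested formative markers rose in Nanog SunTag cells, and 8 of 9 and 6 of 6 in Nanog/Otx2 cells; Pou3f1 was at 3 counts or fewer in 20 of the 35 libraries. Their part in the changes of the cyclins and inhibitors was not tested. In bulk libraries, fewer cells of a type and less RNA per cell cannot be told apart. On the same step in Nanog SunTag cells 4 of 5 tested primitive endoderm markers fell and 2 of 3 mesendoderm markers rose, and in Nanog/Otx2 cells 1 of 6 rose and 1 fell, and 2 of 2 rose. Primitive endoderm markers summed to 767 to 1742 with LIF alone and to 1574 to 1873 with neither in Nanog SunTag cells. These sums did not fall, although the median log2 fold change of the 5 tested was -1.57. Such a sum follows the most abundant genes of the list, whose medians over all libraries ran from 8.88 (Foxa2) to 732 (Dab2). Mesendoderm markers summed to 86.1 to 188 and 435 to 639.9, with Cer1 at 3 counts or fewer in 31 and Gsc in 24 of the 35 libraries. The part of both lists was not tested. Fibroblast markers summed to 289 to 481 in Nanog/Otx2 cells with LIF alone and to 914 to 1145 after Dox, where 4 of 5 tested rose beside the 5 member calls. In Nanog SunTag cells the sums were 246 to 676 and 864 to 1050.4, and 0 of 5 tested were called. Postn and Lum were at 3 counts or fewer in 33 and 34 libraries, and the part of these markers was not tested. Neural markers (4 of 5 in the table) ran from 499.9 to 4618 over all libraries.

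In 44iN cells, the transgene was compared in Dox and 24 h after Dox removal. None of the 9 genes was called by edgeR, 1 (Ccnd2) had an unadjusted p under 0.05, and DESeq2 called the same 1. Over all genes edgeR called 0.0% of 14376, with 1023 at an unadjusted p under 0.05, and DESeq2 called 141. Ccnd2 stood at 857 and 918 normalised counts in Dox and at 238 and 222 without it, and the pairs did not overlap. Its log2 fold change with Dox was 2.05 ± 0.27 (SE), adjusted p = 0.203 by edgeR and adjusted p = 3.40e-05 by DESeq2. Without the first or the second Dox library the log2 fold change of Ccnd2 was 2.10 or 1.95. In these fits the library left is assumed to vary like the others, so their calls are not read here. Without the first Dox library Ccnd3 stood at 0.97 and Cdkn1a at 1.01.

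The other 8 members had adjusted p = 0.703 to 0.867. Myc held 606 and 645 in Dox and 1166 and 881 without it (-0.61 ± 0.26 (SE), adjusted p = 0.722). Ccnd1 held 3246 and 3042 in Dox against 2469 and 2792 (0.35 ± 0.20 (SE), adjusted p = 0.784). The groups of neither gene overlapped, and neither did those of Mycn, Ccne1 or Cdkn2a. With 2 libraries in each group such a gap often arises by chance, and its share over all genes was not counted. For Ccnd3 the counts were 1983 and 3956 against 1745 and 2582, for Cdkn1a 788 and 1488 against 658 and 932, and for Cdkn1b 1994 and 1082 against 2232 and 1440.5, all overlapping. Mycn held 3414 and 2633 against 5039 and 3700.2, Ccne1 5199 and 5295 against 6652 and 5676, and Cdkn2a 20.8 and 32.7 against 9.60 and 11.8. Formative markers summed to 3320.3 to 4926 in Dox and to 6078 to 7780.0 without it, and ES cell markers to 109689 to 113124 and 103091 to 104106. The ES cell sum includes Nanog, whose mean fell from 15880.4 to 722 on Dox removal, by more than the sums differ. The part of both lists was not tested.

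44iN cells grown long-term without Dox were set against Tg2a cells, which differ from them in line and in G418 as well as in Nanog, and 5 of 9 genes were called (Myc, Mycn and Ccne1 higher, Ccnd1 and Ccnd2 lower), where 8.61% of all genes were called. Ccne1 stood at 10055 and 9887 counts in the long-term libraries, the highest of the series, and at 5401, 5221 and 5432 in Tg2a cells (0.82 ± 0.13 (SE), adjusted p = 0.0124). Myc held 1276 and 1340.3 against 574, 601 and 843 (0.88 ± 0.19 (SE), adjusted p = 0.0314). Mycn held 5507 and 8197 against 3702, 3422 and 3162 (0.92 ± 0.19 (SE), adjusted p = 0.0266). These 3 genes were higher in both long-term libraries than in any Tg2a library. Ccnd1 stood at 1293 and 1252 against 3228, 3102 and 2911 (-1.35 ± 0.14 (SE), adjusted p = 0.00337). Ccnd2 stood at 165 and 148 against 646, 557 and 575, 3.98-fold lower (-1.99 ± 0.21 (SE), adjusted p = 0.00362). Both D-type cyclins lay below every Tg2a library.

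Without the first or the second long-term library the log2 fold change was -1.39 or -1.37 for Ccnd1 and -2.09 or -1.96 for Ccnd2. It was 1.16 or 0.57 for Mycn, 0.79 in both fits for Ccne1 and 0.90 or 0.80 for Myc. In these fits the library left is assumed to vary like the others, so their calls are not read here. Each of the 5 calls thus rests on 2 long-term libraries. The calls of Myc (adjusted p = 0.113), Mycn (0.0925) and Ccne1 (0.0698) were lost without the second Tg2a library, and that of Myc without the first (0.0503). Cdkn1b held 790.4 and 896 against 1005, 1562 and 1230.2 (-0.67 ± 0.21 (SE), adjusted p = 0.0917), Cdkn1a 612 and 755 against 702, 1165 and 1341 (-0.72 ± 0.27 (SE), adjusted p = 0.133), the former with no overlap, and both were called as lower without the first Tg2a library (-0.82, adjusted p = 0.0302, and -0.97, adjusted p = 0.0208). Ccnd3 held 1512 and 1252 against 1369.6, 1764 and 3399.6 and Cdkn2a 17.7 and 14.3 against 3.19, 9.84 and 23.0, each overlapping. Primitive endoderm markers summed to 8377 to 12762 in the long-term libraries and 5937 to 8387 in Tg2a cells, against at most 2026 in SunTag libraries. ES cell markers summed to 49248 to 52559 and 96782 to 108478. Part of that gap is Nanog itself, a member of the list, at means of 252 and 19714. The part of both lists was not tested.

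**Figure D4:**
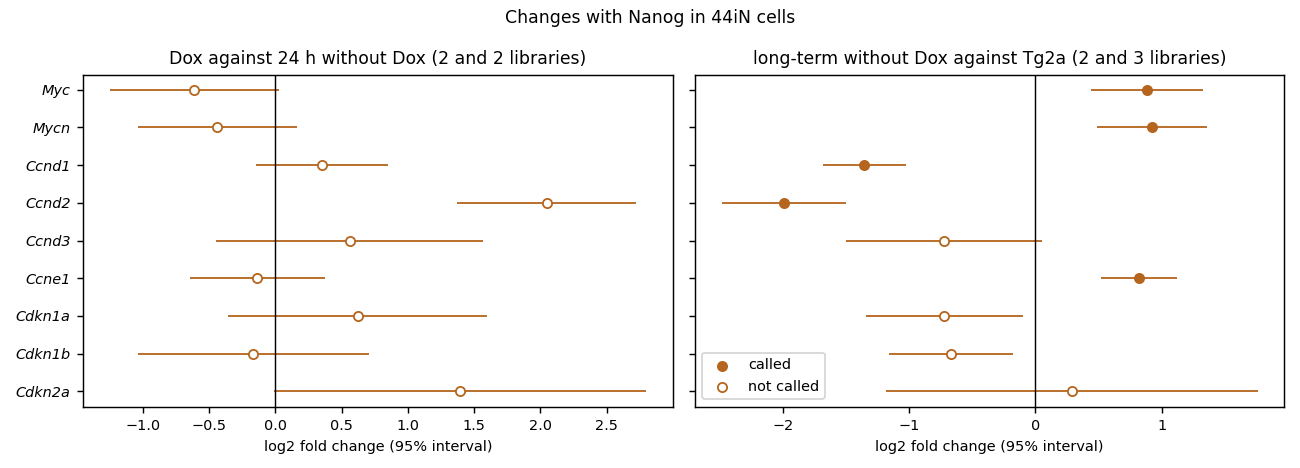
Log2 fold changes of the 9 genes with 95% intervals in 44iN cells, for Dox against 24 h without Dox (left) and for long-term culture without Dox against Tg2a cells (right); filled symbols are called. Ccnd2 lies at 2.05 on the left, uncalled, and at -1.99 on the right, called.

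Across the 12 groups, neighbours in the order of mean levels mostly overlapped. Of 11 neighbouring pairs, 11 overlapped for Myc, Cdkn1a and Cdkn1b, 10 for Mycn and Cdkn2a, 9 for Ccnd2, Ccnd3 and Ccne1 and 8 for Ccnd1. Ccnd1 was highest in the cells given Dox without LIF (4752 ± 303 (SD, n = 3) in Nanog and 4715 ± 311 (SD, n = 4) in Nanog/Otx2 cells). It was lowest in Nanog SunTag cells with LIF and Dox (1423 ± 117 (SD, n = 2)) and in long-term 44iN cells (1273 ± 29.4 (SD, n = 2)), apart from each other and from the next group.

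Genes with the pattern most like each member were sought by the correlation of log2 normalised counts over the 35 libraries, among 12846 genes averaging at least 100 counts. The libraries share conditions, clones and name prefixes, so the coefficients describe these libraries only. The gene most like Ccnd2 was Ccnd1 (r = 0.78, and 0.88 and 0.90 within the libraries of each name prefix). Itpk1 was most like Ccnd3 (0.97), B3gnt7 most like Myc (0.90), Ptch1 most like Mycn (0.86) and Bcl7a most like Ccnd1 (0.84). Tnfaip1 was most like Ccne1 (0.88), Pcdhga9 most like Cdkn1a (0.87) and Zfp161 most like Cdkn1b (0.84). Capn10 was most like Cdkn2a (0.93, but 0.87 within the HV and 0.65 within the B426 libraries). Oaz1, the third in that order (0.93), stood at -0.14 within the Nanog/Otx2 libraries. Between members, Ccnd3 and Cdkn1a had r = 0.46 over all libraries, and 0.82 and 0.84 within the libraries of each prefix. Ccnd3 and Ccne1 had -0.71 over all libraries, and -0.69 and -0.49 within each prefix.

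Other genes of the pathway were counted from gene lists, members left out, and named from 3 comparisons by size of change. On LIF withdrawal without Dox in Nanog SunTag cells, 5 of 12 other Myc network genes tested rose and 3 fell, where 41.5% of all genes were called. The Rb and E2F genes, with 7 of 13, also stood above that share, the ubiquitin ligase subunits, with 3 of 7, stood near it and the other 5 lists below it, and no list was tested against it. Mycl1, the third Myc paralogue, rose (1.95, adjusted p = 0.000101). The antagonists Mxd3 and Mxd4 went opposite ways, Mxd3 falling (-1.33, adjusted p = 0.0029) and Mxd4 rising (1.16, adjusted p = 0.00978). Of 6 other G1 cyclins and kinases 2 rose, Ccne2 (1.07, adjusted p = 0.0137) and Cdc25a (0.51, adjusted p = 0.0135), a phosphatase that activates Cdk2. Of 13 Rb and E2F genes 4 rose and 3 fell, E2f7, a repressor, rising (1.61, adjusted p = 6.49e-06) and the activators E2f2 (-1.80, adjusted p = 9.63e-05) and E2f1 (-0.96, adjusted p = 0.00621) falling. The list medians were 0.42 for the Myc network, 0.53 for G1 cyclins and kinases and 0.35 for Rb and E2F, members included, beside -0.05 over all genes tested.

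Subunits of the G1 ubiquitin ligases rose in 3 of 7 cases, Cul1 (0.91, adjusted p = 0.00136), Cks1b (0.64, adjusted p = 0.00354) and Skp2 (0.57, adjusted p = 0.00775), which recognises p27. Of 18 Myc targets 4 rose and none fell, with Cad, a pyrimidine synthesis enzyme, at 1.40, adjusted p = 0.000154. Of 14 p53 pathway genes 2 rose, Pmaip1 (0.97, adjusted p = 0.0291) and Ccng1 (0.57, adjusted p = 0.0415), and 1 fell, Ei24 (-1.21, adjusted p = 0.000998). Of 16 S phase E2F targets 1 fell, Cdc45 (-0.44, adjusted p = 0.0341). Among 3 other kinase inhibitors tested 1 fell, Cdkn2d, a p16Ink4a relative (-0.83, adjusted p = 0.0159). The same step in Nanog/Otx2 SunTag cells called 7 of 12 other Myc network genes (4 higher, 3 lower), 9 of 13 Rb and E2F genes (5 and 4), 4 of 18 Myc targets (all higher) and 5 of 14 p53 pathway genes (1 and 4), where 49.8% of all genes were called.

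Dox without LIF lowered Mycl1 in Nanog SunTag cells (-1.35, adjusted p = 0.00724) and raised E2f2 (1.06, adjusted p = 0.0162), the pocket protein gene Rbl2 (0.89, adjusted p = 0.0213) and Skp2 (0.77, adjusted p = 0.00932), the only calls among these pathway lists besides Ccnd2, where 5.14% of all genes were called. Dox with LIF in Nanog/Otx2 cells lowered 3 of 6 other G1 cyclins and kinases, 6 of 18 Myc targets (1 rose), 4 of 16 S phase E2F targets and 4 of 14 p53 pathway genes, where 22.9% of all genes were called and 1562 of 15609 were lower. It also lowered 2 of 12 other Myc network genes (1 rose), 2 of 7 ubiquitin ligase subunits and 1 of 3 other kinase inhibitors. Of 13 Rb and E2F genes none fell and 1 rose. In the long-term 44iN cells, where 8.61% of all genes were called, Rb1 fell (-1.71, adjusted p = 0.00673), as did Rbl2 (-0.82, adjusted p = 0.0458) and Cdk6 (-0.98, adjusted p = 0.0355).

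**Figure D5:**
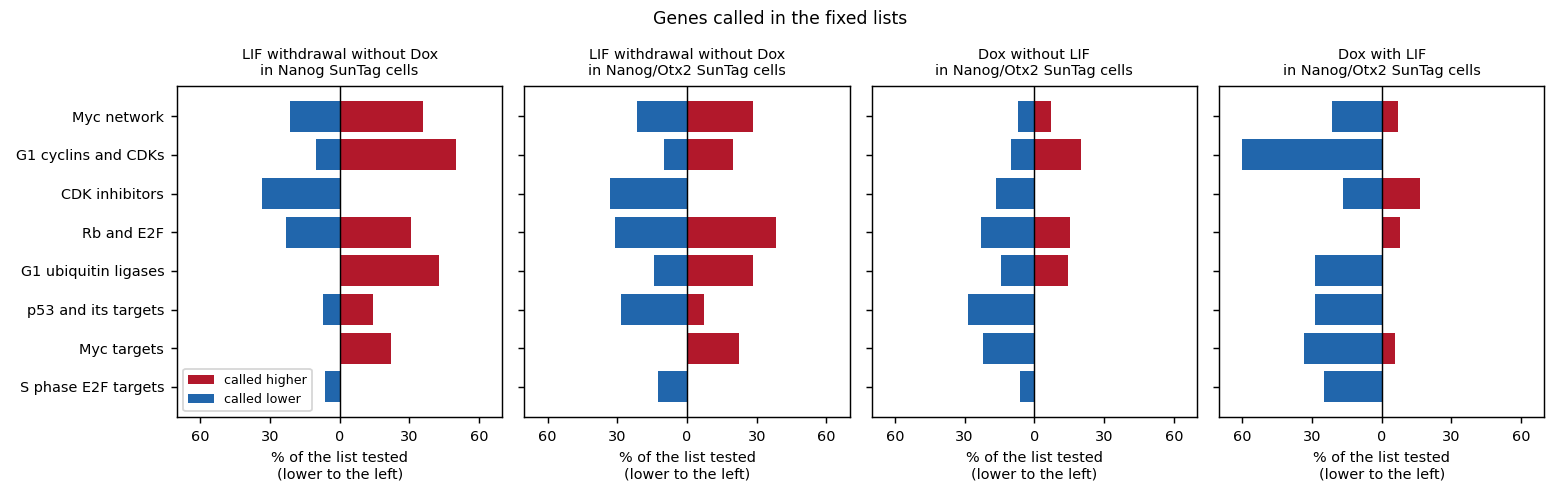
Share of the genes tested in each fixed list that were called higher (right) or lower (left) in 4 SunTag comparisons, members included. In Nanog/Otx2 cells with LIF, Dox lowered 6 of 10 genes of the G1 cyclin and kinase list, where 1562 of all 15609 genes tested were lower.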

How the data were processed

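The authors deposited RNA-seq estimated counts per gene (STAR and RSEM on mm9, rounded to whole numbers) and a signal table of those counts divided by DESeq2 size factors, per the labels and the study's methods; the values printed as normalised counts come from the latter. The depth was 6107512 to 92244655 estimated counts per library, and the number of libraries per group limits the precision. A gene entered a fit where 1 or more of its conditions had all libraries at 10 normalised counts or above. edgeR 4.0.16 (R 4.3.3) was fitted to the estimated counts separately for Nanog SunTag, Nanog/Otx2 SunTag, 44iN, and long-term 44iN with Tg2a libraries, by quasi-likelihood F tests with Benjamini-Hochberg adjustment over all genes tested, and tested on simulated data. SE is the log2 fold change over the square root of F. Alternatives were DESeq2 1.42.0, other size factors and filters, replicate blocks, and leaving out each library.

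The members and gene lists were chosen with earlier results of these data known, and the members were named in every comparison whether called or not. Same-numbered libraries deviated together within Nanog/Otx2 clones (lowest r = 0.131), and clone marks a shared cell line, so blocked values are printed for SunTag cells where they change a call. 44iN and Tg2a libraries share only a number. The 2 libraries both titled C1, -LIF, +Dox, 1 differed beyond sampling noise (chi-square per degree of freedom of 23.0) and were kept as separate replicates. Tg2a libraries in 2i were not analysed here. Gene positions were read as mm9 and promoter sequences from RefSeq on GRCm38.p6.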

Additional observations from a re-analysis of the deposited data

Results flagged for a closer look

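The effect of Dox differed between culture without and with LIF for Ccnd1 and Ccnd2 in both SunTag cell types, by a test of the difference itself (edgeR interaction, adjusted over all genes tested). In Nanog SunTag cells the difference was 1.11 ± 0.19 (SE), adjusted p = 0.0174 for Ccnd1 and 2.21 ± 0.47 (SE), adjusted p = 0.0386 for Ccnd2, on the log2 scale. In Nanog/Otx2 SunTag cells it was 0.74 ± 0.15 (SE), adjusted p = 0.00687 for Ccnd1 and 2.63 ± 0.53 (SE), adjusted p = 0.00554 for Ccnd2. Of all genes tested, 1.93% were called in Nanog SunTag cells and 9.7% in Nanog/Otx2 cells. Both calls in Nanog SunTag cells were lost in several fits that left out 1 library, while those in Nanog/Otx2 cells held in every such fit. Of 27 groups of 4 libraries tested for a value far from the others (9 genes in each of 3 groups), none was found by Dixon's criterion, which chance would meet in about 1 of 20 groups.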

How the results depend on the processing

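Over 1800 repeats of the members' tests under alternatives, 1650 stayed on the same side of the threshold with the same direction, 67 gained and 83 lost a call, and none reversed. Leaving out 1 library accounted for 73 of the losses and 17 of the gains. The number of members called then ran from 4 to 6 for LIF withdrawal without Dox, 4 to 5 with Dox, 0 to 1 for Dox without LIF, 0 to 1 with LIF, 0 to 2 for the difference and 4 to 4 for Nanog in place of LIF in Nanog SunTag cells. In Nanog/Otx2 cells it ran from 2 to 3, 3 to 4, 1 to 3, 1 to 5 and 2 to 3 for the first 5 of these, and from 0 to 0 for the difference between guides. The share of all genes called in these fits is not given, so the ranges are no result about the members. Counts are left out for 44iN and long-term cells, where fits left a group with 1 library. Where a group was left with 1 library, it was assumed to vary like the others.

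Shares in parentheses are of all genes called under the same alternative. For Dox without LIF in Nanog SunTag cells (1 member called), DESeq2 (9.66%), no filter (3.45%), the replicate block (8.8%), the block by column numbers (6.68%) and a fit of only the conditions compared (13.3%) each called 2. For Dox with LIF (1 called), DESeq2 called 2 (3.76%), the block by column numbers 0 (0.0064%) and the fit of only the conditions compared 0 (0.0%). In Nanog/Otx2 cells the replicate block and the block by column numbers each called 7 for LIF withdrawal with Dox against 4 (51.9% and 52.7%), 6 for Dox without LIF against 3 (33.4% and 34.6%) and 6 for the difference against 2 (21.8% and 21.3%). The block by column numbers called 4 for LIF withdrawal without Dox against 2 (61.9%), and the fit of only the conditions compared 1 for Dox without LIF (14.9%). The cause of these shifts was not tested.

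In 44iN cells (0 called) DESeq2 (0.981%), no filter (1.97%) and a fit of all 9 libraries (0.803%) each called 1. The block by replicate number, which the labels do not tie to a shared culture, called 3 (13.3%): Myc (-0.61, adjusted p = 0.0304), Ccnd2 (2.04, adjusted p = 7.21e-16) and Cdkn1a (0.57, adjusted p = 0.0445). In long-term against Tg2a cells the block called 7 against 5 (32.4%), adding Cdkn1a (-0.50, adjusted p = 0.0139) and Cdkn1b (-0.67, adjusted p = 0.00245). Pairing by number rests there on 2 pairs each (mean correlations of 0.492 and 0.134). Counts of Cdkn2a as low as 4 limit its precision.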
